A study of Mus musculus with 8 samples.

Results

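Wnt ligands, the proteins that secrete, receive and block them, and a pair of genes that the pathway switches on were followed in the hippocampus of SAP97-cKO mice and their controls. The family was chosen by the read counts of Wnt6 in this comparison, which were lower in SAP97-cKO, and its members were then found by gene symbol alone. They are the genes named Wnt, Fzd, Sfrp, Dkk or Rspo with a number, together with Lrp5, Lrp6, Frzb, Wif1, Porcn, Wls, Axin2 and Lef1. The rule found 46 of the 25834 genes in the table: 18 Wnt ligands, 2 genes of Wnt secretion, 10 Frizzled receptors, 2 Lrp co-receptors, 6 secreted antagonists of the Sfrp, Frzb and Wif1 kind, 2 Dkk genes, 4 R-spondins and 2 target genes. Since Wnt6 brought the family in, its values are a description with no test, and counts of changed members in the same comparison support nothing about the family.

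The samples were hippocampal RNA of male mice, 4 controls and 4 SAP97-cKO, with 1 library for each mouse. The SAP97-cKO mice were Nestin-cre+/-; SAP97fl/fl: Cre, driven by the Nestin promoter of neural progenitors, cuts the floxed Dlg1 gene, which encodes the synaptic scaffold SAP97. The controls were littermates that carried Cre alone (Nes-cre+/-), the floxed alleles alone (SAP97fl/fl) or neither (wild-type), and which of these each control library came from is not given in the sources used here, nor is the age of the sequenced mice. The Nestin-cre line was on a C57Bl/6 background. Nestin-driven Cre acts in neurons and glia and their progenitors, not by design in meninges or vessels, and a hippocampal dissection can carry both. The deposited counts summed to 37388177 to 37416649 reads in the control libraries and 37391907 to 37426572 in the SAP97-cKO libraries, so that depth was almost equal. A normalized count below is a read count scaled by edgeR's TMM factors to the mean library, and a log2 fold change is SAP97-cKO over control.

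Wnt proteins are secreted, lipid-modified signals that bind Frizzled receptors, alone or with the co-receptors Lrp5 and Lrp6. In the best known branch the signal stops the breakdown of beta-catenin, which then acts with TCF and LEF proteins on target genes, while other branches act on cell polarity and calcium. In the hippocampus Wnt signals are known from the formation of the tissue at the cortical hem, from the birth of granule neurons in the dentate gyrus and from the shaping of synapses.

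Dlg1 was read first, as a check of the labels. Its normalized counts were 4338 ± 336 among controls and 2393 ± 470 among SAP97-cKO libraries (SD, n = 4 mice each). Each SAP97-cKO library, from 2009 to 3065, lay below each control library, from 3983 to 4691. These are counts over the whole gene on chr16:31663443-31875129 of GRCm38 and not over the floxed part alone.

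The tissue label was set against neuron and hippocampal genes. The 7 neuron genes summed to 380167 ± 19629 normalized counts in controls and 426568 ± 23407 in SAP97-cKO (SD, n = 4 each), and Camk2a was the most abundant of them. The 6 genes of hippocampal subfields, among them Prox1 of dentate granule cells and Wfs1 of CA1, summed to 24009 ± 2669 and 27415 ± 3996. None of these genes was at 0 in any library.

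Wnt6 (ENSMUSG00000033227) encodes a ligand known from kidney tubules and somites, and it lies on the plus strand at chr1:74771892-74785322 of GRCm38. The control libraries held 90, 67, 45 and 60 reads, and the SAP97-cKO libraries held 14, 22, 20 and 15. After scaling this came to 64.7 ± 19.4 normalized counts in controls and 18 ± 3.66 in SAP97-cKO (SD, n = 4 each), or 27.8% of the control mean. The groups did not overlap, with all 4 SAP97-cKO libraries under the lowest control, and the spread was wider among the controls. The log2 fold change was -1.84 (standard error 0.28). With any of the 8 libraries left out it lay between -1.97 and -1.64. All of this rests on 333 reads in 8 libraries, the values that the family was selected on.

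Wnt10a, the nearest member to Wnt6, starts 6193 bases beyond its end on the same strand, at chr1:74791516-74804179. It held 104, 178, 88.4 and 156 normalized counts in controls and 166, 125, 104 and 108 in SAP97-cKO. The groups overlapped, and the log2 fold change was -0.07 (standard error 0.24), from -0.22 without SAP97-cKO 1 to 0.12 without control 2. A test of the difference between both genes was not run.

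**Figure D1:**
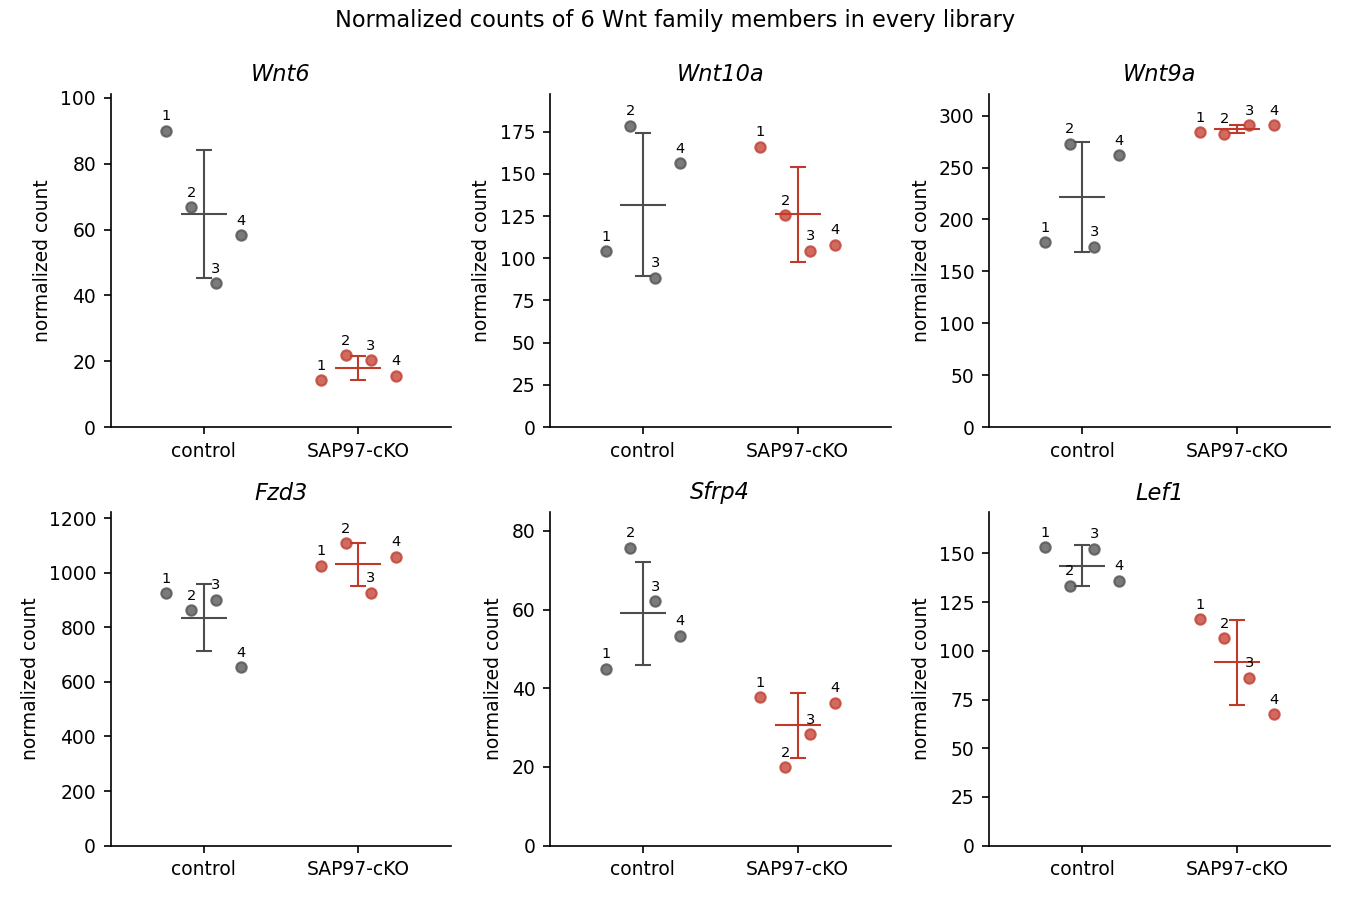
Normalized counts (vertical axes, from 0) of 6 members in each of the 8 libraries, numbered by replicate, with group means and SD bars (n = 4 mice). In Wnt6, Sfrp4 and Lef1 every SAP97-cKO point lies below every control point, in Wnt9a and Fzd3 every one lies above, and in Wnt10a the groups overlap.

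Of the 46 members, 42 had enough reads to be tested; Wnt1, Wnt3a, Wnt10b and Rspo4 did not pass the filter on low counts. By edgeR's quasi-likelihood test at an FDR under 0.25, 46 of 16251 genes were lower in SAP97-cKO (0.283%) and 2 were higher (0.0123%). Among the members tested, Wnt6, which the choice of the family put there, was the 1 lower member and 0 were higher. In 3 members every SAP97-cKO library lay below every control library, as in 3.47% of all genes tested, and in 2 every one lay above, as in 2.78%. The 3 were Wnt6, Sfrp4 and Lef1, and the 2 were Wnt9a and Fzd3; with no scaling of the libraries Lrp5 joined the first and Fzd3 left the second. Nothing is read from these counts, since the family was taken up for this contrast.

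Without Wnt6, 0 of the 41 members tested passed in either direction in edgeR, while 6 lower and 3 higher had an unadjusted p under 0.05, as had 7.01% (lower) and 4.73% (higher) of all genes tested. Their adjusted p, from edgeR with Benjamini-Hochberg adjustment over all genes, began at 0.317 (Sfrp4). With Wnt6, limma-voom called 1 member lower and 0 higher, with 0.295% of all genes lower and 0.0123% higher, and DESeq2 called 5 lower (Lef1, Lrp5, Sfrp4, Wls and Wnt6) and 1 higher (Fzd3), where it called 3.62% of all genes lower and 2.74% higher. In edgeR the same 5 lower and Fzd3 passed without control 1, with 5.83% of all genes lower and 4.34% higher. Fzd2, Lef1, Lrp5, Sfrp4 and Wnt6 (lower) and Wnt4 (higher) passed without SAP97-cKO 1, with 2.73% and 1.58%. Without control 2, SAP97-cKO 3 or SAP97-cKO 4 edgeR called 0 members and 0 genes of the whole table, with 1403, 1259 and 1167 genes at an unadjusted p under 0.05. In those fits the log2 fold change of Wnt6 was -1.82, -1.89 and -1.77. Which members were called thus changed with the library left out, and the cause was not tested.

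In sign, 30 of the 42 members tested were lower and 12 higher in SAP97-cKO, with a median log2 fold change of -0.11, against 8574 of 16251 genes lower and a median of -0.01. Without Wnt6 the median was -0.09. Over fits without 1 library, the median of all members tested ran from -0.25 without control 4 to -0.06 without control 3. With no scaling of the libraries 31 members were lower (median -0.15) and the median of all genes was -0.06, and with DESeq2 size factors 30 were lower (median -0.10). With the meningeal covariate described below 21 were lower and 21 higher (median -0.01). That covariate itself separated the genotypes, so here and below its fit cannot tell meningeal level and genotype apart. With the choroid plexus covariate 27 were lower and 15 higher (median -0.05).

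**Figure D2:**
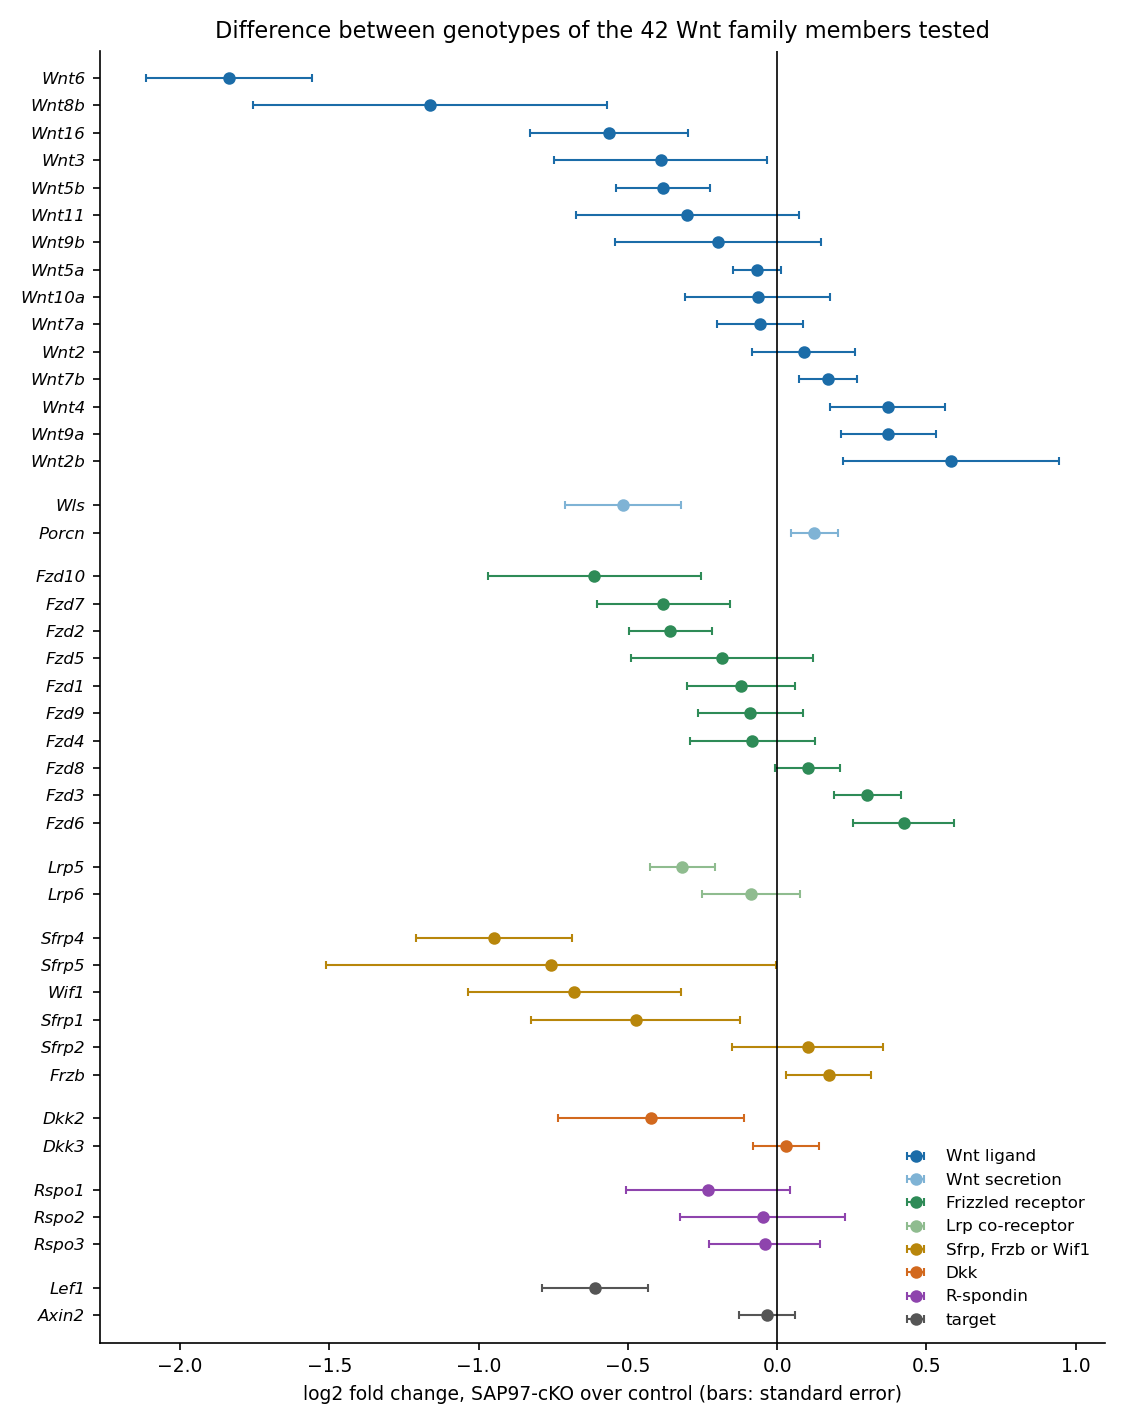
Log2 fold change of SAP97-cKO over control (horizontal axis, bars are standard errors) for the 42 members tested, grouped and coloured by role. Wnt6, at -1.84, is the farthest from 0 and chose the family, and 30 of the 42 points lie below 0.

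Levels of different members were compared only as mean normalized counts per kb of exon in controls. Dkk3 stood highest at 5241 ± 474 per kb (SD, n = 4), followed by Porcn at 726 ± 19.2 and Wnt7b at 386 ± 52.9. Wnt6, at 29.5 ± 8.85 per kb, was number 28 of the 46, between Fzd8 at 34.5 ± 1.67 and Rspo1 at 23.4 ± 8.13, and the spread of its libraries covered both means. At the low end Wnt3a stood at 0.630 and Rspo4 at 0.927 per kb. The family thus ran from a gene with 142070 reads over the 8 libraries to genes with 14 (Wnt3a) and 11 (Rspo4).

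**Figure D3:**
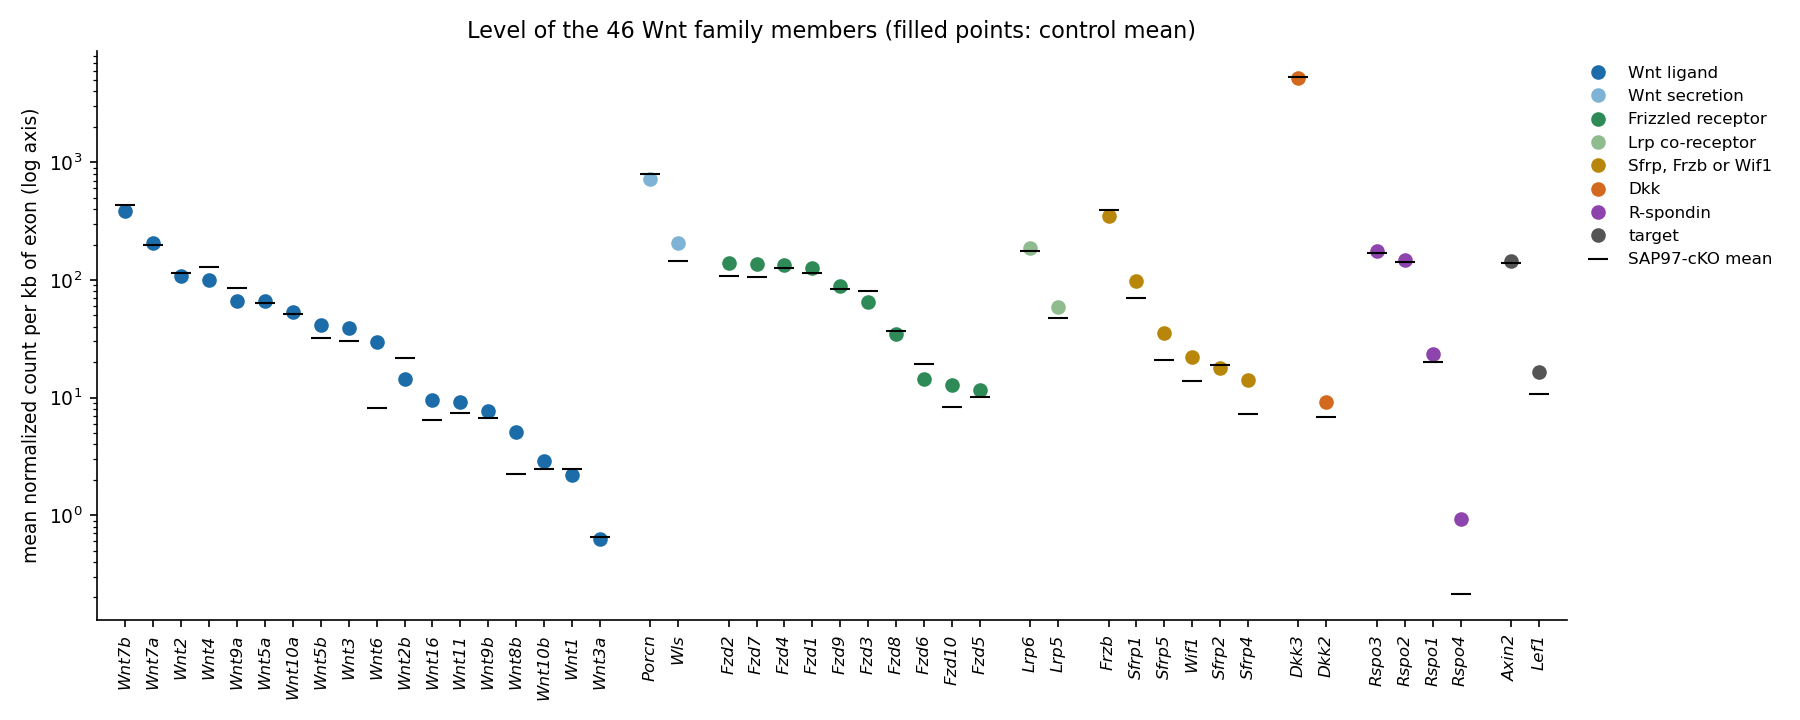
Mean normalized count per kb of exon (vertical log axis) of the 46 members, ordered within each role by the control level. Filled points are control means and dashes are SAP97-cKO means (n = 4 mice each); Dkk3 stands highest at 5241 per kb in controls, and in Wnt6 the dash stands farthest under its point among the members tested.

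Among the ligands, Wnt7b and Wnt7a, which signal to brain vessels with Adgra2 and Reck and act at synapses, had the highest levels per kb. Wnt7b held 1912, 1699, 1704 and 2251 normalized counts in controls and 1914, 2242, 2150 and 2208 in SAP97-cKO (log2 fold change 0.17, standard error 0.10). Wnt7a stood at 657 ± 119 normalized counts in controls and 632 ± 78.2 in SAP97-cKO (SD, n = 4 each). Neither of the most abundant ligands separated the genotypes. The log2 fold change of Wnt7b ran from 0.12 without control 2 to 0.27 without control 4, its highest library. Of the 15 ligands tested, 10 were lower and 5 higher in sign.

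Wnt9a, a ligand known from joint formation, held 178, 273, 174 and 262 normalized counts in controls and 284, 283, 291 and 291 in SAP97-cKO. The SAP97-cKO libraries lay within a few counts of each other, just above the highest control, while the controls fell into a lower and a higher pair. This gave a log2 fold change of 0.37 (standard error 0.16), and the groups of Wnt9a stayed apart with no scaling of the libraries.

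Wnt8b, a ligand of the embryonic cortical hem, had 7, 31, 25 and 9 reads in controls and 6, 12, 11 and 2 in SAP97-cKO. At -1.16 (standard error 0.59) it had the largest log2 fold change of the ligands tested after Wnt6, from -1.44 without SAP97-cKO 2 to -0.76 without control 2. The groups overlapped, and with the meningeal and choroid plexus covariates described below the value was -0.04 and -0.44.

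Wnt3, a ligand that astrocytes release in the dentate gyrus, had 57, 110, 224 and 103 reads in controls and 124, 87, 87 and 66 in SAP97-cKO. Control 3 stood far above the other libraries. The log2 fold change was -0.39 (standard error 0.36) over all libraries, -0.62 without control 1 and 0.07 without control 3.

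The non-canonical ligand Wnt5a was among the steadiest members, with 521 ± 28.4 normalized counts in controls and 498 ± 20.98 in SAP97-cKO. Wnt2 stood at 244 ± 15.5 and 259 ± 64.8. Neither genotype stood apart in these ligands. Wnt4, a ligand known from kidney and gonad development, stood at 417 ± 60.7 and 539 ± 149 (SD, n = 4 each), and its groups overlapped.

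The ligands that did not pass the filter on low counts were rarely read. Wnt1, a ligand of the midbrain boundary, had 44 reads over the 8 libraries and Wnt10b had 73. Wnt3a, the ligand of the cortical hem in the embryo, had 3, 3, 1 and 0 reads in controls and 2, 0, 2 and 3 in SAP97-cKO.

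Both genes of Wnt secretion were abundant. Porcn, the enzyme that attaches the lipid to Wnt proteins, held 2245, 2118, 2203 and 2144 normalized counts in controls and 2133, 2173, 2613 and 2577 in SAP97-cKO. Wls, which carries Wnt proteins to the cell surface, held 1308, 2144, 2134 and 1679 in controls and 1196, 1753, 1129 and 999 in SAP97-cKO. Porcn was nearly level in controls and split into a lower and a higher pair in SAP97-cKO, and Wls was lowest in SAP97-cKO 4, with SAP97-cKO 2 inside the control range. The log2 fold change was 0.12 (standard error 0.08) for Porcn and -0.52 (standard error 0.19) for Wls. With the meningeal covariate described below these values were 0.03 and -0.16, and with the choroid plexus covariate 0.10 and -0.35. For Porcn it ran from 0.08 without SAP97-cKO 3 to 0.18 without SAP97-cKO 1.

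Of the 10 Frizzled receptors, all tested, 7 were lower and 3 higher in sign, against 3 and 7 with the meningeal covariate and 5 and 5 with the choroid plexus covariate described below. The meningeal covariate itself separated the genotypes, and both cannot be told apart in that fit. Fzd3, a receptor of axon guidance and planar polarity, held 924, 862, 901 and 654 normalized counts in controls and 1026, 1109, 926 and 1059 in SAP97-cKO. SAP97-cKO 3 and control 1 nearly touched, at 926 and 924, and with no scaling of the libraries the groups overlapped. Over all libraries the log2 fold change was 0.30 (standard error 0.11). Fzd6, which also acts in planar polarity, had the largest difference upward of the receptors, 0.42 (standard error 0.17), with 69.2 ± 8.82 normalized counts in controls and 92.9 ± 12.5 in SAP97-cKO.

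Fzd2 and Fzd7, receptors with the highest control levels per kb in their class, at 139 ± 20.05 and 137 ± 50.2 per kb, were lower in sign. Fzd2 held 491, 549, 412 and 578 normalized counts in controls and 480, 410, 350 and 345 in SAP97-cKO (log2 fold change -0.36, standard error 0.14). With the meningeal covariate described below Fzd2 stood at -0.16 and with the choroid plexus covariate at -0.37. For Fzd7 the log2 fold change was -0.38 (standard error 0.22), with control 2 highest at 906, and it ran from -0.55 without control 4 to -0.14 without control 2; with the meningeal covariate it was 0.02 and with the choroid plexus covariate -0.08. In both the groups overlapped. Fzd10 had the largest difference downward of the receptors, -0.61 (standard error 0.36), from -0.88 without SAP97-cKO 2 to -0.28 without control 3.

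The co-receptors differed in how they varied. Lrp6 held 2597, 3108, 2805 and 1658 normalized counts in controls and 2748, 2292, 2366 and 2167 in SAP97-cKO, with control 4 lowest of all 8. Lrp5, at a lower level per kb, held 542, 665, 579 and 522 in controls and 538, 440, 446 and 428 in SAP97-cKO. Of the SAP97-cKO libraries only number 1 lay within the control range of Lrp5, and with no scaling of the libraries none did. Log2 fold changes were -0.09 for Lrp6 (standard error 0.17), from -0.24 without control 4 to 0.02 without control 2, and -0.32 for Lrp5 (standard error 0.11).

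The secreted antagonists Sfrp1, Sfrp2, Sfrp4, Sfrp5, Frzb and Wif1 hold Wnt proteins away from their receptors, and 4 of the 6 were lower in sign. Sfrp4 held 45.0, 75.7, 62.2 and 53.4 normalized counts in controls and 37.7, 19.9, 28.4 and 36.3 in SAP97-cKO. Every SAP97-cKO library lay below every control, with SAP97-cKO 1 the nearest to them. Its log2 fold change, -0.95 (standard error 0.26), had an adjusted p of 0.317 in edgeR; without single libraries it lay between -1.06 and -0.79. Frzb, the most abundant of the 6 per kb at 346 ± 50.6, had 1122 ± 164 normalized counts in controls and 1264 ± 237 in SAP97-cKO.

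Sfrp5 and Sfrp1 varied more between mice of 1 genotype than between genotypes. Sfrp5 had 15, 158, 84 and 18 reads in controls and 20, 87, 38 and 14 in SAP97-cKO. Sfrp1 held 271, 715, 412 and 314 normalized counts in controls and 321, 461, 297 and 155 in SAP97-cKO. Control 2 was highest in both, and SAP97-cKO 2 was highest of its group. Their log2 fold changes were -0.76 (standard error 0.75) and -0.47 (standard error 0.35), or 0.07 and -0.11 without control 2 and -1.46 and -0.73 without SAP97-cKO 2. With the meningeal covariate described below they were 0.90 and 0.60, and with the choroid plexus covariate 0.42 and -0.10. Wif1 was highest in control 3, at 96.2 normalized counts against 30.9 to 46.6 in the other controls, and its log2 fold change of -0.68 ran from -0.87 without control 2 to -0.23 without control 3.

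Dkk proteins bind Lrp5 and Lrp6 and block them, apart from the divergent Dkk3. Dkk3 held 19376, 18102, 15559 and 17378 normalized counts in controls and 20421, 14397, 18257 and 18762 in SAP97-cKO, with SAP97-cKO libraries both highest and lowest of the 8. The difference was 0.03 on the log2 scale (standard error 0.11), and -0.02 with no scaling. Dkk2 stood at 34.0 ± 10.7 and 25.3 ± 8.01 normalized counts (SD, n = 4 each).

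R-spondins strengthen Wnt signals through Lgr receptors, which take the receptor-clearing enzymes Rnf43 and Znrf3 out of action. Rspo3 and Rspo2 stood at 175 ± 46.3 and 148 ± 50.8 normalized counts per kb in controls, well above Rspo1. Rspo2 held 779, 756, 431 and 1066 normalized counts in controls and 462, 1038, 686 and 746 in SAP97-cKO. The 3 R-spondins tested had log2 fold changes of -0.23 (Rspo1), -0.05 (Rspo2) and -0.04 (Rspo3), each smaller than its standard error. With single libraries left out they ran from -0.41 to -0.01 (Rspo1), from -0.26 to 0.16 (Rspo2) and from -0.12 to 0.15 (Rspo3). Rspo4 had 9 reads in all controls together and 2 in SAP97-cKO.

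The target genes gave unlike values. Axin2, a widely used readout of beta-catenin signalling and itself a brake on it, held 821, 758, 861 and 721 normalized counts in controls and 748, 817, 848 and 673 in SAP97-cKO. On the log2 scale this was -0.03 (standard error 0.09). Lef1, a transcription factor of the pathway needed for dentate granule cells and also made by brain endothelium, held 153, 134, 153 and 136 in controls and 116, 107, 86.1 and 67.5 in SAP97-cKO. Every SAP97-cKO library lay below every control for Lef1, and for Axin2 the groups overlapped, with SAP97-cKO 4 the lowest of the 8. For Lef1 the log2 fold change, -0.61 (standard error 0.18), had an adjusted p of 0.331 in edgeR; without single libraries it lay between -0.72 and -0.48.

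The wider pathway was taken from 68 further genes in 4 lists, of which 67 were tested. By edgeR at an FDR under 0.25, 0 were lower and 0 higher, with 4 lower and 6 higher at an unadjusted p under 0.05, against 7.01% and 4.73% of all genes. By limma-voom 0 passed, and DESeq2, with 3.62% of all genes lower and 2.74% higher, called 3 lower (Nkd1, Trabd2b and Vangl1) and 3 higher (Apc, Apc2 and Lrp4). In sign, 24 were lower and 43 higher, with a median log2 fold change of 0.08. The lists did not share 1 direction.

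Of the 26 genes that carry the signal inside the cell, 22 were higher in sign, with a median of 0.09, and 20 were with no scaling of the libraries. In 5 of them, Dvl1, Dvl2, Apc, Apc2 and Ctnnb1, every SAP97-cKO library lay above every control, as in 2.78% of all genes tested, and of these 5 Apc alone stayed apart with no scaling. Apc, the scaffold of the complex that breaks down beta-catenin, held 13371, 12366, 12251 and 11028 normalized counts in controls and 14479, 16489, 13676 and 14998 in SAP97-cKO. Ctnnb1, which encodes beta-catenin, stood within a narrow band, 21077 to 22200 in controls and 22353 to 23386 in SAP97-cKO. These differences were small, with log2 fold changes of 0.28 (standard error 0.08) for Apc and 0.08 (standard error 0.06) for Ctnnb1. Tcf7l2, a partner of beta-catenin, had the largest difference of the list, -0.66 (standard error 0.37), with control 3 at 566 normalized counts and every other library between 134 and 267.

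Of the 24 other receptors, co-receptors and modulators, 16 were lower and 8 higher in sign. With the meningeal covariate described below, which itself separated the genotypes, 12 were lower and 12 higher, and with the choroid plexus covariate 14 and 10. In the meningeal fit the covariate and genotype cannot be told apart. Lrp4, which binds the Wnt antagonists Sost and Sostdc1, held 1675, 1737, 1652 and 1673 normalized counts in controls and 2695, 2037, 1973 and 2088 in SAP97-cKO. Every SAP97-cKO library lay above the closely grouped controls, and a log2 fold change of 0.38 (standard error 0.10) had an adjusted p of 0.316 in edgeR. Sost and Sostdc1 had the largest differences of the list, -1.91 (standard error 0.90) and -1.29 (standard error 0.65), with overlapping groups. Sostdc1 ran from 117 to 1519 normalized counts among controls alone.

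Of the 11 planar polarity genes, 8 were higher in sign. Vangl1, a core protein of planar polarity, went the other way, with 226, 280, 258 and 187 normalized counts in controls and 186, 131, 171 and 127 in SAP97-cKO. Its groups did not overlap, by the margin of control 4 over SAP97-cKO 1, and the log2 fold change was -0.63 (standard error 0.17). Celsr2, an atypical cadherin of the same system, had the next largest, 0.35 (standard error 0.16).

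Of the 7 feedback and target genes, 6 were tested and 5 were higher in sign, or 3 with no scaling. Nkd1, a target gene that restrains Dvl proteins, held 399, 440, 403 and 517 normalized counts in controls and 388, 354, 298 and 324 in SAP97-cKO. Its groups did not overlap, and the log2 fold change was -0.37 (standard error 0.12). Myc stood at 0.22 (standard error 0.14) on the same scale.

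Genes of other cell types in the dissected tissue also varied in level between these libraries. By edgeR at an FDR under 0.25, 0 genes of the cell type lists given here passed in either direction. Of all genes tested 0.283% were lower and 0.0123% higher. In bulk tissue, fewer cells of a type and less RNA per cell cannot be told apart. The meningeal fibroblast list was drawn up without the genes in the study's own table of changed genes. All 15 genes of this list were lower in sign, with a median log2 fold change of -0.71, though Dcn stood at -0.01 (standard error 0.42). In 5 of the 15 every SAP97-cKO library lay below every control, as in 3.47% of all genes tested. Summed, they came to 12832, 23609, 13885 and 12010 normalized counts in controls and 8337, 12924, 11168 and 7725 in SAP97-cKO. Igf2 was the most abundant, with 36.9% of the sum, and none of the 15 was at 0 in any library. The sums of SAP97-cKO 1, 3 and 4 lay below every control and that of SAP97-cKO 2 within their range, so that meningeal genes were lower along with Wnt6.

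All 15 choroid plexus genes were lower in sign too, with a median of -1.49, and all 15 overlapped between the groups. Summed, they came to 70504, 382125, 216127 and 17278 normalized counts in controls and 38361, 126896, 72104 and 9589 in SAP97-cKO. Ttr made up 59.2% of the sum, and no gene of the list was at 0 in any library. The libraries spanned 39.9-fold, with control 2 highest and SAP97-cKO 4 lowest. What part either tissue had in the Wnt6 counts was not tested.

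**Figure D4:**
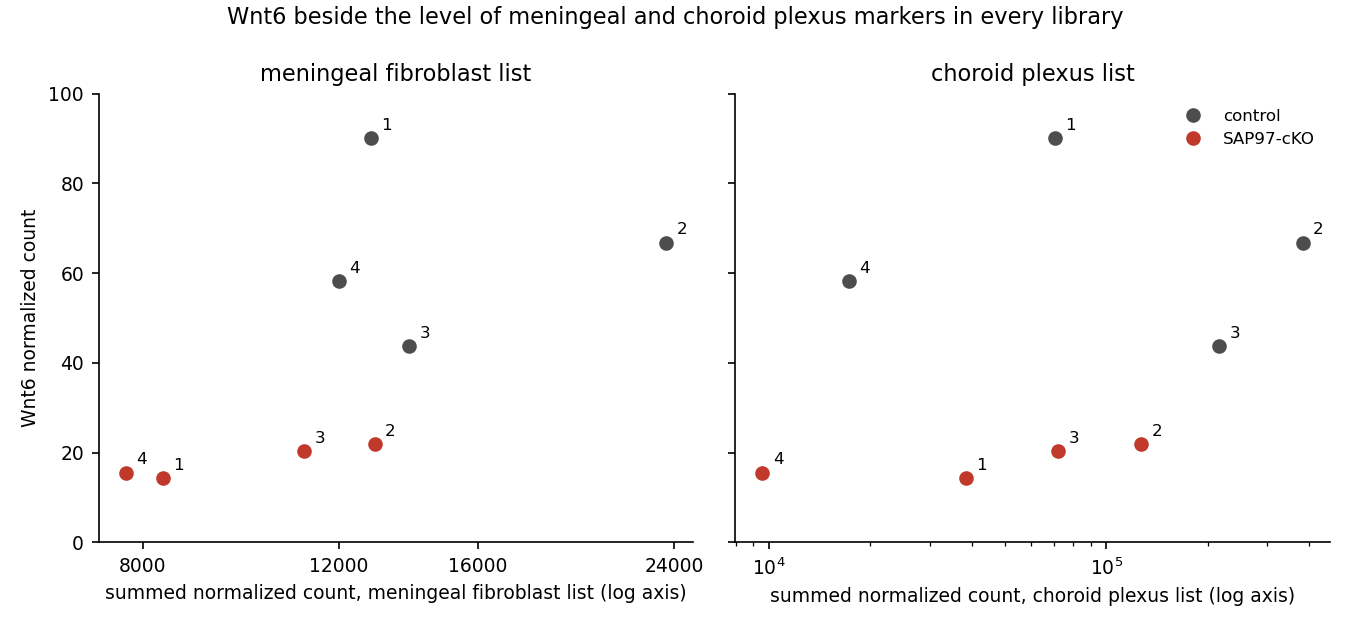
Wnt6 normalized counts (vertical axis) against the summed normalized counts of the 15 meningeal fibroblast genes (left, log axis) and the 15 choroid plexus genes (right, log axis) in the 8 libraries, numbered by replicate. All 4 SAP97-cKO libraries lie under the lowest control for Wnt6; on the left 3 of them, all but SAP97-cKO 2, also lie below every control sum, and on the right the sums of the genotypes overlap.

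Both lists were also put into the edgeR fit as the mean log2 CPM of their genes. For meningeal genes this mean was 3.33 to 4.06 in controls and 2.43 to 3.25 in SAP97-cKO, so that the covariate separates the genotypes too. With it the log2 fold change of Wnt6 was -1.36 (standard error 0.44), and edgeR called 0 genes of the whole table, with 657 at an unadjusted p under 0.05. Of the 42 members tested, 21 were then lower and 21 higher. With the choroid plexus covariate Wnt6 stood at -1.81 (standard error 0.31), and 27 members were lower and 15 higher. Of the members other than Wnt6 named by rule, Wnt10a, Fzd7, Lrp6, Frzb, Sfrp1, Sfrp5, Dkk2, Dkk3, Rspo1, Rspo2 and Axin2 changed sign with the meningeal covariate, and Lrp6, Sfrp5, Dkk3 and Axin2 with the choroid plexus covariate. The meningeal changes ran from Dkk3, 0.03 to -0.06 (standard error 0.20), to Sfrp5, -0.76 to 0.90 (standard error 0.90). Lrp6, Dkk3, Rspo2 and Axin2 moved by less than 1 SD between replicates there, as did all that changed sign with the choroid plexus covariate.

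Other cell type lists were summed in the same way. SAP97-cKO held 68.0% of the control mean for ependymal genes (most abundant Foxj1), 71.0% for oligodendrocyte genes (Mbp), 80.5% for pericyte and smooth muscle genes (Rgs5) and 86.8% for endothelial genes (Flt1). It held 109% for astrocyte genes (Slc1a2), 112% for neuron genes (Camk2a) and 114% for genes of hippocampal subfields (Fibcd1). Sums of the genotypes overlapped in each of these lists except pericyte and smooth muscle, where SAP97-cKO 1, at 8190, lay just under the lowest control, at 8208. For endothelial genes SAP97-cKO 1 had the highest sum of all libraries, 12664, and for oligodendrocyte genes its sum lay within the control range. With no scaling the signs within the astrocyte and hippocampal lists shifted toward lower. The part of these cell types in the values of the other members was not tested.

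The members lie on 16 chromosomes, 26 on the plus strand and 20 on the minus strand. Ligand genes sit in 4 close pairs. Besides Wnt6 and Wnt10a, which run the same way, Wnt3a and Wnt9a are 16175 bases apart on chromosome 11, Wnt9b and Wnt3 are 24328 bases apart on the same chromosome, and Wnt10b and Wnt1 are 11706 bases apart on chromosome 15. Each of these other pairs lies on opposite strands. In none did both genes show groups that did not overlap, and 3 of the 8 genes were too low to be tested. In Wnt9b and Wnt3 control 3 was the highest library of both.

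Exons of 9 members share bases with a gene on the opposite strand, and whether counting used strand is not given in the sources used here. For Lef1 this is Gm43352, with 1208 shared bases and 58 reads in all libraries beside 955 of Lef1. For Fzd5 it is Gm38058, with 1233 bases and 63 reads. No such gene was found for Wnt6, Wnt10a, Wnt9a, Fzd3 or Sfrp4.

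Promoters were read from RefSeq sequences for GRCm38.p6, 250 bases before each start, and 31 members matched, with 37 promoters. The members not matched were Wnt5a, Wnt7b, Wnt10a, Porcn, Fzd2, Fzd3, Fzd6, Fzd8, Lrp5, Lrp6, Sfrp1, Sfrp4, Dkk3, Rspo2 and Rspo3. Members' promoters had a median GC content of 66.8% against 52.4% over 32851 promoters of the table, and a median of 21 CpG dinucleotides against 6. The TCF/LEF motif CTTTGAT, searched on both strands, was in 2 of the 37 (5.41%), 1 each of Wnt5b and Wnt11, and in 3.21% of all. The promoter of Wnt6 had a GC content of 79.6% and 28 CpG dinucleotides, a number that 7.61% of all promoters reach, and did not hold these letters. That of Wnt9a had 84.4% and 48. They are printed for the ligand that chose the family and for the ligand whose SAP97-cKO libraries all stood above the controls, 5′ to 3′ on the plus strand, with CpG dinucleotides in capitals. Wnt6 is read from chr1:74771642-74771891 and Wnt9a from chr11:59306680-59306929.
Wnt6: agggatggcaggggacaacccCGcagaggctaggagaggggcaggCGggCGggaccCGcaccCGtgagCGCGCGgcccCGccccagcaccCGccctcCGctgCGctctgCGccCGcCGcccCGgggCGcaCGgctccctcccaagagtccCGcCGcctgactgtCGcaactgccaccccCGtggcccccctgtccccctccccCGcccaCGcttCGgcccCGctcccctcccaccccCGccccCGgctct
Wnt9a: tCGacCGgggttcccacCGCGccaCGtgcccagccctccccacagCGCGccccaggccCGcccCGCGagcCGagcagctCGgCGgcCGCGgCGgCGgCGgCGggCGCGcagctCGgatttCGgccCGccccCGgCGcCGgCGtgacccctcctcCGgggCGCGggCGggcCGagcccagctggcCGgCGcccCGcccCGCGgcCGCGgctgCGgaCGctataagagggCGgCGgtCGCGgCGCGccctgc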

How the data were processed

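The authors prepared TruSeq libraries from hippocampal RNA of 8 male mice. They used STAR 2.5.3a for alignment to the mouse genome mm10 (GRCm38.p5). Their PORT pipeline, described as removing ribosomal and mitochondrial reads, resampled the libraries to equal depth and assigned reads to genes of the Ensembl annotation. Whether strand was used is not given in the sources used here. Deposited counts are whole reads per gene, 1 column for each library, and 3.73% to 4.93% of them lay on mitochondrial genes. Further columns hold the authors' own comparison (fold change on the log2 scale, p and q), which was not used. Depth was 37388177 to 37426572 counts per library, and no library repeated another (chi-square of a pair, divided by genes, 9.17 to 68.0).

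Genes were kept by filterByExpr (minimum count 10, minimum total 15), which left 16251 and removed 9583, and scaled by TMM. The test was edgeR's quasi-likelihood test (edgeR 4.0.16, R 4.3.3), tried first on simulated data. Its p were adjusted by Benjamini-Hochberg across the tested genes, with the study's threshold of an FDR under 0.25. The common biological coefficient of variation was 0.152. Positions and exon lengths came from GENCODE M21 for GRCm38, to which all 46 members and 25696 of 25834 identifiers were matched. Promoters came from RefSeq for GRCm38.p6.

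The members and lists were chosen with earlier results of these data known. Named members were Wnt6, those past the threshold, those whose groups did not overlap, those within 100 kb of Wnt6 and, in each role, the 2 highest per kb in controls and the 2 with the largest log2 fold change. Of the pathway lists, genes whose groups did not overlap and the 2 largest log2 fold changes of a list could be named. Wnt1, Wnt2, Wnt2b, Wnt3, Wnt3a, Wnt4, Wnt5a, Wnt5b, Wnt9b, Wnt10b, Wnt11, Fzd5, Fzd8, Sfrp2, Wif1, Rspo4, Trabd2b and Dcn were named after their values had been seen. The alternatives were limma-voom (limma 3.58.1), DESeq2 1.42.0, other scalings and filters, a replicate block, list covariates, an FDR under 0.05 and each library left out. The result of 1 cell type list is not reported here. The plots were drawn with matplotlib 3.10.9.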

Additional observations from a re-analysis of the deposited data

Results flagged for a closer look

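In 84 groups of 4 libraries, 1 for each tested member and genotype, 3 values stood apart: the gap to the nearest of the others, divided by the range of the group, was over Dixon's critical value for 4 values. Chance flags about 1 in 20 groups, so 3 of 84 is no pattern. The ligand Wnt2b held 151 normalized counts in SAP97-cKO 2, against 66.9 to 77.4 in the other SAP97-cKO libraries. The co-receptor Lrp5 held 538 in SAP97-cKO 1, against 428 to 446. The antagonist Sfrp2 held 55.0 in SAP97-cKO 4, against 35.6 to 37.5.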

How the results depend on the processing

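Fold changes of the 25 named members other than Wnt6 gave 424 values over 17 alternatives, of which 413 moved by less than 1 SD between replicates and 11 by more, all 11 with the meningeal covariate (Wnt7a, Wnt8b, Wnt10a, Wls, Fzd6, Fzd7, Frzb, Sfrp1, Sfrp5, Dkk2 and Rspo1). Of these 11, Wnt10a, Fzd7, Frzb, Sfrp1, Sfrp5, Dkk2 and Rspo1 changed sign. The meningeal covariate itself separated the genotypes, and both cannot be told apart in that fit. Sfrp5 also changed sign with the choroid plexus covariate, from -0.76 to 0.42, within its wide spread between mice. Wnt6 stood at -1.36 with the meningeal covariate and between -1.97 and -1.64 in every other fit, each library left out included.

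Counts of calls depended on the fit. Against 46 genes lower and 2 higher in SAP97-cKO, DESeq2 called 588 and 445, no scaling 94 and 1, no filter 89 and 15, and the choroid plexus covariate 15 and 1. The meningeal covariate and an FDR under 0.05 in edgeR each called 0 and 0 genes, and so 0 members; 657 and 1907 genes had an unadjusted p under 0.05. With each library left out in turn, 0 to 960 genes were lower and 0 to 715 higher. Of members, against 1 lower and 0 higher, DESeq2 called 5 and 1, and with each library left out 0 to 5 were lower and 0 to 1 higher. Of the other pathway genes, against 0 and 0, DESeq2 called 3 and 3, no filter 1 higher (Lrp4), and with each library left out 0 to 5 were lower and 0 to 6 higher. The cause was not tested.

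The control and SAP97-cKO libraries share replicate numbers, and whether these mark pairs of mice is not given in the sources used here. Same-numbered libraries did not all deviate together (correlations of -0.06, 0.20, 0.09 and 0.26 across genes), while 5 of 8 correlated best with their own number. The choroid plexus sums had the same order by number in both groups. With the block the standard error was 0.29 for Sfrp5 (0.75 without it) and 0.19 for Sfrp1 (0.35). It was 0.30 for Wnt6 (0.28 without it) and 0.31 for Sfrp4 (0.26). With the replicate number as a block, 234 genes were lower and 22 higher, 2 members were lower (Wls and Wnt6), and 1 other pathway gene was lower (Vangl1) and 1 higher (Lrp4).

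Members whose groups did not overlap were counted under alternatives chosen after seeing the data. With no scaling 4 members lay wholly below the controls (3 with TMM) and 1 wholly above (2 with TMM), against 5.26% and 1.51% of all genes. With each library left out 3 to 5 lay below and 2 to 3 above, against 4.24% to 8.07% and 3.62% to 7.30% of all genes. Depth limits the members with few reads a library, Wnt6 among them, in which counting error adds to the spread between mice.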
